A study of Rattus norvegicus with 34 samples.

Results

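The cytosolic ribosomal protein genes are those that encode the protein components of the ribosome in the cytoplasm. They were taken by name: each probe whose current symbol is Rps or Rpl followed by a number and an optional suffix, together with Rplp0, Rplp1, Rplp2 and Rpsa, leaving out the Rps6k kinases and the mitochondrial ribosomal proteins. A probe that the deposited description names only by a locus number, and the platform annotation does not name, was counted as a copy instead. Rpl12l1 and Rpl12l2 are such copies. This gave 81 genes, measured by 83 probes, of 21862 genes and unnamed probes in all. Of the 81 genes, 31 encode proteins of the small subunit, 47 of the large subunit and 3 of its stalk. Rpl12 and Rps19 had 2 probes each, which were averaged. Expression was measured in rat primary cortical neurons after 21 days in culture, on 34 arrays of a whole-genome Illumina bead platform. The severe injury arrays were 3 at each of 8, 15, 24 and 48 h and 1 at 0 h, the mild injury arrays were 3 at each of 0, 8, 15, 24 and 48 h, and there were 6 control arrays. Axon bundles were cut with a knife or stretched with puffs of oxygen, and the labels do not say which of these was called mild and which severe. The embryos were Hooded Wistar rats, of gestation day 15 to 16 by the sample labels and embryonic day 17 by the growth protocol, at least 12 wells were pooled for a time point, and cultures from 3 pregnant rats were used, without a label that ties a replicate to a culture.

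A ribosome needs about equal amounts of each of its proteins, and the mRNAs of these proteins are among the most abundant of most cells. Most of them begin with a run of pyrimidines, the terminal oligopyrimidine tract, through which the mTOR pathway and the protein Larp1 control their translation and stability together. In neurons, ribosomes and ribosomal protein mRNAs are also found in axons and dendrites, where local translation takes place. Several ribosomal proteins have further roles: Rpl5, Rpl11 and Rpl23 can bind Mdm2 and so stabilise p53 when ribosome assembly is disturbed.

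The deposited value of a probe on an array is a ratio, which is given here as its log2. The severe arrays and the arrays labelled mild 48 h were divided by the mean of the 3 arrays labelled mild 48 h. The control arrays and the mild arrays of 0 to 24 h were divided by the mean of control 1 to 3, so the 2 sets of arrays were not compared with each other. Ratios carry no signal level: whether a probe was above background, and how the abundance of 1 gene compares with that of another, cannot be read from them. Group names follow the labels, which are uncertain for 18 arrays. In the deposited signal table the arrays labelled mild 48 h stand right after control 1 to 3. Taken in that order they would be control 4 to 6. The arrays now called control 4 to 6 would move to mild 0 h, and each later mild group would move on by a time point. The comparisons below that name mild 48 h would then be against controls. The arrays lay on 4 chips. Chip 3 held 10 of the 13 severe arrays and 0 of the 3 arrays labelled mild 48 h. Over all features the SD of the log2 ratio was 0.45 to 0.60 on the severe arrays and 0.07 to 0.09 on the mild 48 h arrays, which are also the divisor.

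The ribosomal protein genes were lower on the severe arrays than on the mild 48 h arrays at every time tested, and no gene of the group rose. At 48 h, 63 of the 81 genes fell and the median log2 difference of the group was -0.87, which is 0.548 of the mild 48 h level. Over all 21862 features, 7.77% were called lower at 48 h and 3.45% higher (11.2% in all), and the median difference was 0.00. At 8 h, 44 genes fell with a median of -0.58, where 5.14% of all features were lower and 3.47% higher (8.6% in all). At 15 h, 49 fell with a median of -0.60 (6.39% of all features lower, 4.44% higher, 10.8% in all), and at 24 h, 53 fell with a median of -0.65 (6.35% lower, 2.85% higher, 9.2% in all). A call means an adjusted p under 0.05 by limma with Benjamini-Hochberg adjustment over all features, with 3 arrays in each group. All 4 comparisons share the 3 mild 48 h arrays. In cultured cells measured in bulk, fewer cells of a type and less RNA per cell cannot be told apart.

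The fall was present on every severe array. The median log2 ratio of the 81 genes lay between -1.27 and -0.49 on the 13 severe arrays, with a middle value of -0.66, and was -0.11, 0.07 and 0.04 on the mild 48 h arrays. The lowest of these was severe 48 h replicate 2 at -1.27, and the other 12 severe arrays lay between -0.75 and -0.49. On a severe array between 71 and 77 of the 81 genes were below 0. On mild 48 h replicates 1, 2 and 3 the count was 71, 10 and 24, so it does not set replicate 1 apart. For 63 of the 81 genes all 13 severe arrays lay below all 3 mild 48 h arrays, which was so for 8.5% of all features. None of the 81 lay above on all severe arrays, as 4.66% of all features did. The remaining 18 genes overlapped.

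**Figure D1:**
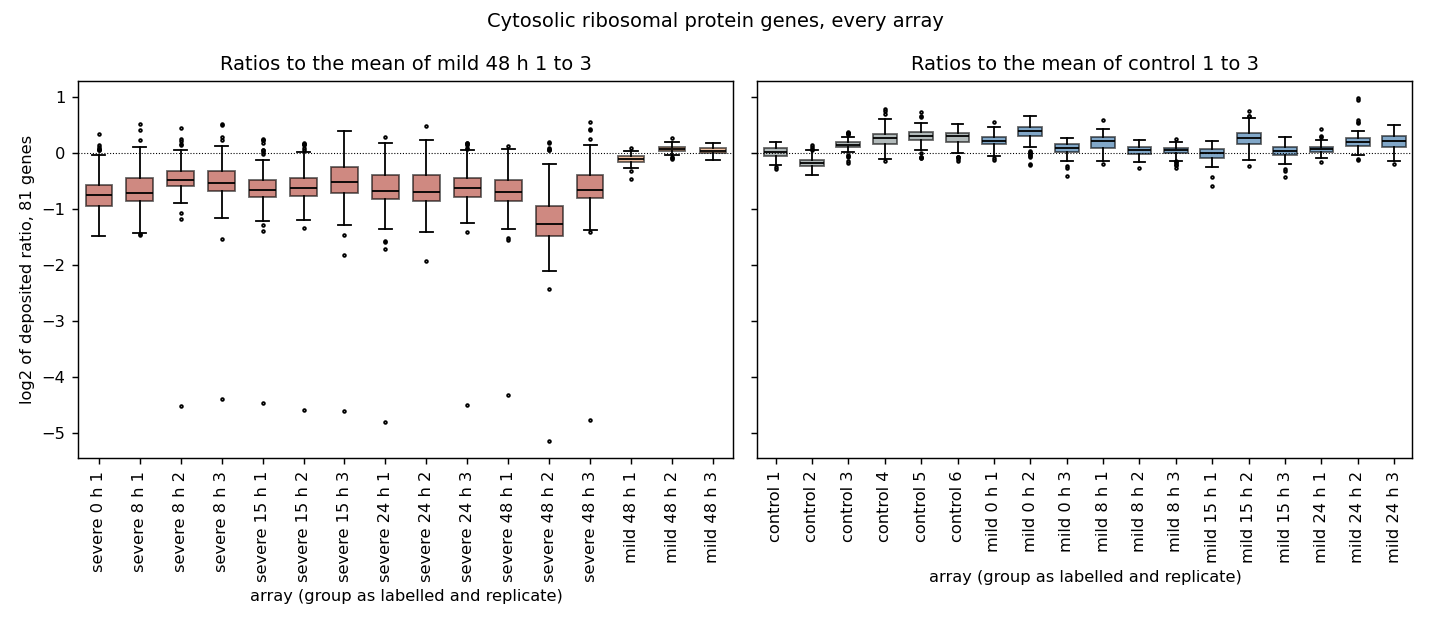
Log2 of the deposited ratio of the 81 cytosolic ribosomal protein genes on every array, grouped as labelled. Boxes span the middle quartiles with the median as a line, whiskers reach 1.5 times the box, and points are genes beyond. Severe arrays, ratios to the mild 48 h mean, have medians from -1.27 to -0.49, and the point near -4.5 on 10 of them is Rpl30. The control and mild 0 to 24 h arrays, ratios to the control 1 to 3 mean, have medians from -0.18 to 0.38.

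The fall was also present within single chips, while the number of genes called depended on how chips were treated. With the chip as a term in the fit, 10, 13, 28 and 41 genes fell at 8, 15, 24 and 48 h, with medians of -0.63, -0.62, -0.74 and -0.94. In that fit 3.72%, 4.41%, 4.16% and 4.14% of all features were called in either direction. Within chip 2, severe 8 h replicate 1 was lower than mild 48 h replicate 3 for 74 of the 81 genes, with a median difference of -0.72. Within chip 4, severe 15 h replicate 1 was lower than mild 48 h replicate 1 for 74 genes, with a median of -0.55. Within chip 1, severe 24 h replicate 1 was lower than mild 48 h replicate 2 for 73 genes, with a median of -0.72. Of all features, 48.5%, 50.7% and 45.0% were lower in the pairs of chips 2, 4 and 1. No chip held arrays of severe 48 h and mild 48 h. These pairs are single arrays and were not tested.

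Counts at the early times also depended on single arrays. At 8 h, 20 genes fell without mild 48 h replicate 2, 21 without mild 48 h replicate 3 and 21 without severe 8 h replicate 1, with medians between -0.55 and -0.51. In these fits 5.46%, 5.35% and 6.94% of all features were called in either direction. At 15 h the count was 30 without mild 48 h replicate 2, 29 without mild 48 h replicate 3, 32 without severe 15 h replicate 1 and 31 without severe 15 h replicate 2. Of all features, 7.25%, 7.18%, 7.26% and 7.42% were called. At 48 h the count was 61 without severe 48 h replicate 2, the array with the lowest values (12.9% of all features called), and the median was then -0.69.

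The small and the large subunit had similar medians, and a difference between them was not tested. At 48 h, 26 of the 31 small subunit genes fell with a median of -0.89, and 36 of the 47 large subunit genes with a median of -0.85. At 8 h the medians were -0.59 for the small and -0.56 for the large subunit, with 19 and 24 genes called lower. Of the 3 stalk genes, 1 fell at each of the 4 times.

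**Figure D2:**
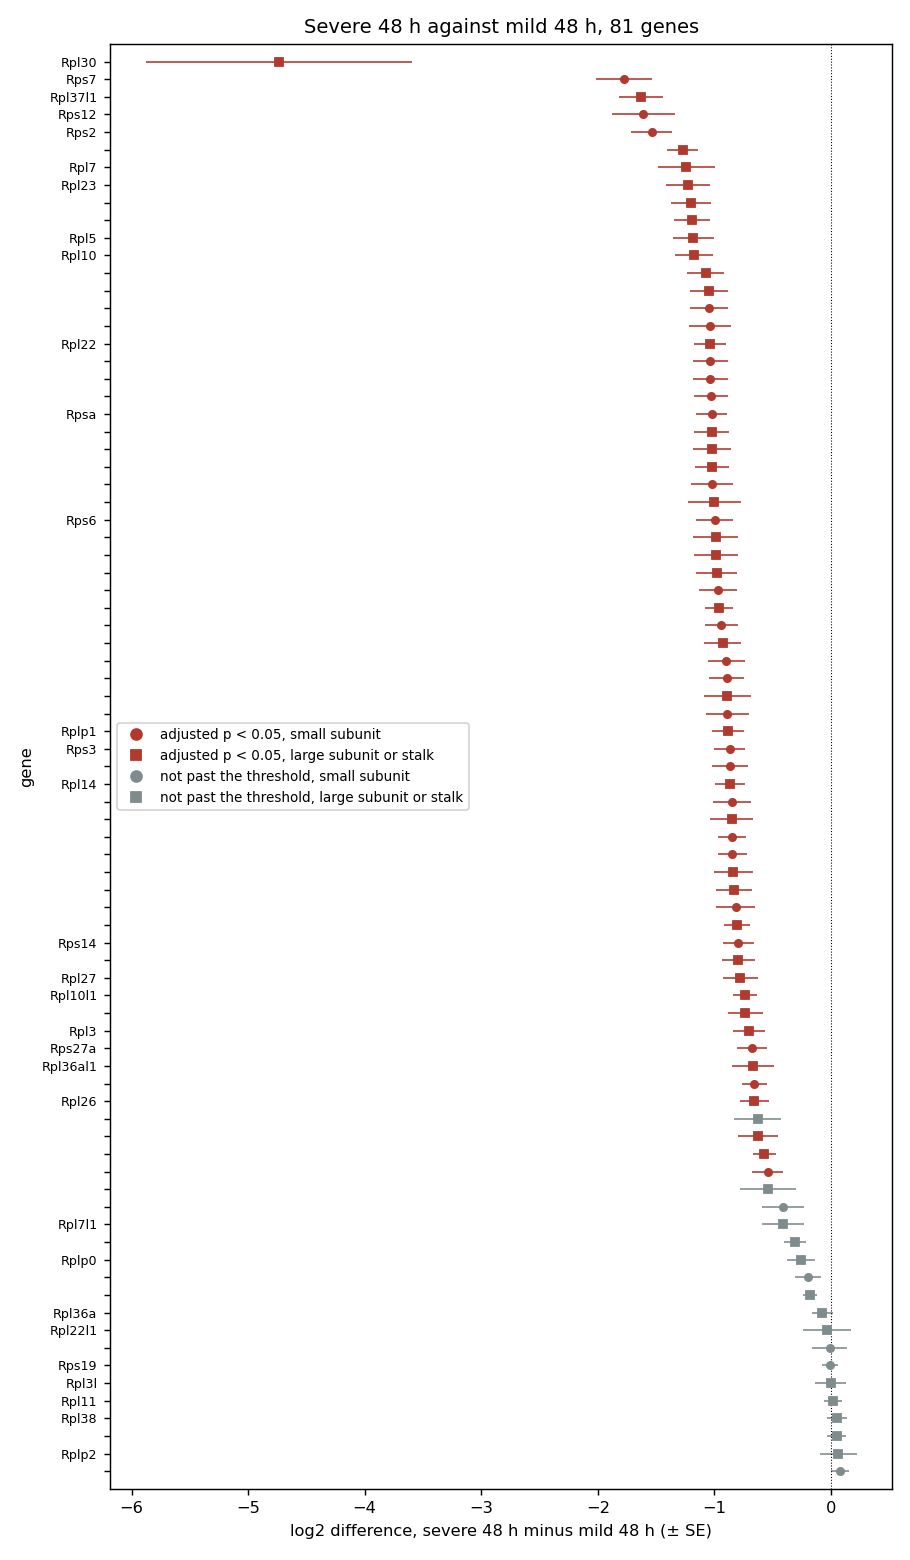
Log2 difference, severe 48 h minus mild 48 h, of each of the 81 genes with its standard error from the fit (3 arrays a group). Circles are small subunit genes and squares large subunit or stalk genes, and red marks an adjusted p under 0.05. Genes described by role, paralogy or size of difference carry a name. The 63 red genes all lie left of 0, with Rpl30 lowest at -4.74, and the 18 grey genes lie between -0.63 and 0.08.

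Among small subunit genes, Rps7, Rps12 and Rps2 had the largest falls. Rps2 encodes a protein near the entry of the mRNA channel. Its log2 ratios were -1.32, -2.03 and -1.28 on the severe 48 h arrays, against -0.20, 0.09 and 0.09 on the mild 48 h arrays. All 13 severe arrays lay between -2.03 and -1.01. The difference at 48 h was -1.54 ± 0.17 (SE, adjusted p = 0.000102 by limma), and it was -1.12, -1.25 and -1.32 at 8, 15 and 24 h.

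Rps7, an assembly factor of the small subunit that can also bind Mdm2, had log2 ratios of -1.55, -2.44 and -1.37 on the severe 48 h arrays and -0.21, 0.10 and 0.09 on the mild 48 h arrays. Its difference was -1.78 ± 0.24 (limma adjusted p = 0.000377). Rps12 had ratios of -1.35, -2.10 and -1.41 on the severe 48 h arrays and -0.24, 0.17 and 0.04 on the mild 48 h arrays, a difference of -1.61 ± 0.27 (limma adjusted p = 0.00164). In all 3 genes the severe 48 h and mild 48 h arrays did not overlap, and severe 48 h replicate 2 was the lowest array.

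Other small subunit genes fell by about the median of the group. Rps6, the substrate of the S6 kinases, had ratios of -0.75, -1.51 and -0.74 on the severe 48 h arrays and -0.05, 0.06 and -0.01 on the mild 48 h arrays. It fell to 0.50 of the mild 48 h level (limma adjusted p = 0.0012). Rps3, which also takes part in DNA repair, differed by -0.87, and Rps14, a protein of the decoding platform lost in the human 5q deletion, by -0.80. Rpsa, also known as the laminin receptor precursor, differed by -1.02. Rps27a, made as a fusion with ubiquitin, differed by -0.68. All 4 passed the threshold at 48 h, and in each the 13 severe arrays lay below the 3 mild 48 h arrays.

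Among large subunit genes, Rpl5, which binds 5S rRNA, had log2 ratios of -0.97, -1.69 and -0.89 on the severe 48 h arrays and -0.08, -0.03 and 0.10 on the mild 48 h arrays. The difference was -1.18 ± 0.18 (limma adjusted p = 0.000774). Its partner in that complex, Rpl11, had ratios of -0.02, 0.19 and -0.12 on the severe 48 h arrays and 0.09, -0.12 and 0.02 on the mild 48 h arrays. These overlapped, and the difference was 0.02 ± 0.08 (limma adjusted p = 0.935). The Rpl11 probe varied little on any array: its ratios ran from -0.12 to 0.19 on the severe arrays and from -0.22 to 0.11 on the arrays of the other set.

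Rpl23, the other Mdm2 binding protein named above, had ratios of -1.07, -1.79 and -0.83 on the severe 48 h arrays and -0.09, 0.08 and 0.01 on the mild 48 h arrays. Its difference was -1.23 ± 0.19 (limma adjusted p = 0.000983). Rpl10, which joins the large subunit late in its assembly, differed by -1.18 ± 0.16 and Rpl3, a protein next to the peptidyl transferase centre, by -0.70 ± 0.14. Rpl26, which can bind the mRNA of p53, differed by -0.66 ± 0.13, and all 3 fell. Rpl38, known in mice for the translation of Hox mRNAs, had ratios of 0.13, 0.06 and -0.06 on the severe 48 h arrays and -0.17, -0.01 and 0.16 on the mild 48 h arrays, which overlapped.

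The stalk proteins recruit the elongation factors, and their 3 genes did not move together. Rplp1 had log2 ratios of -0.67, -1.29 and -0.70 on the severe 48 h arrays and -0.10, 0.02 and 0.08 on the mild 48 h arrays, and its difference was -0.89 ± 0.14 (limma adjusted p = 0.000956). Rplp0, the base of the stalk, had -0.12, -0.58 and -0.07 on the severe 48 h arrays and 0.03, 0.08 and -0.12 on the mild 48 h arrays, a difference of -0.26 ± 0.12 (limma adjusted p = 0.243). Rplp2, the partner of Rplp1, had 0.03, -0.28 and 0.41 on the severe 48 h arrays and -0.19, 0.13 and 0.04 on the mild 48 h arrays. At 8 h its ratios were 0.52, 0.45 and 0.51 and lay above the mild 48 h arrays, but the difference of 0.50 ± 0.16 did not pass the threshold (limma adjusted p = 0.0821).

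Rpl30 stood apart from the other genes in the size of its fall and in its spread over arrays. It encodes a large subunit protein that, in yeast, also controls the splicing of its own transcript. Its log2 ratios were -4.32, -5.14 and -4.77 on the severe 48 h arrays, against -0.25, 0.13 and 0.09 on the mild 48 h arrays, a difference of -4.74 ± 1.14 (limma adjusted p = 0.0166). At 15 h they were -4.46, -4.59 and -4.60, a difference of -4.54 (adjusted p = 0.0226). At 8 h they were -0.30, -4.52 and -4.39 and at 24 h -4.81, -0.43 and -4.49, and neither time passed the threshold (limma adjusted p = 0.152 and 0.115). The single severe 0 h array had -1.35. Thus 10 of the 13 severe arrays lay below -4 and 3 above -2, with none in between. On the 18 control and mild 0 to 24 h arrays Rpl30 lay between -0.17 and 0.66. On the 3 severe arrays with higher Rpl30, the medians of the 81 genes were -0.72 (8 h), -0.70 (24 h) and -0.75 (0 h), below all of the other 10 but severe 48 h replicate 2. The 3 loci described as copies of Rpl30 differed by -0.33, -0.08 and -0.05 at 48 h, and none passed the threshold.

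**Figure D3:**
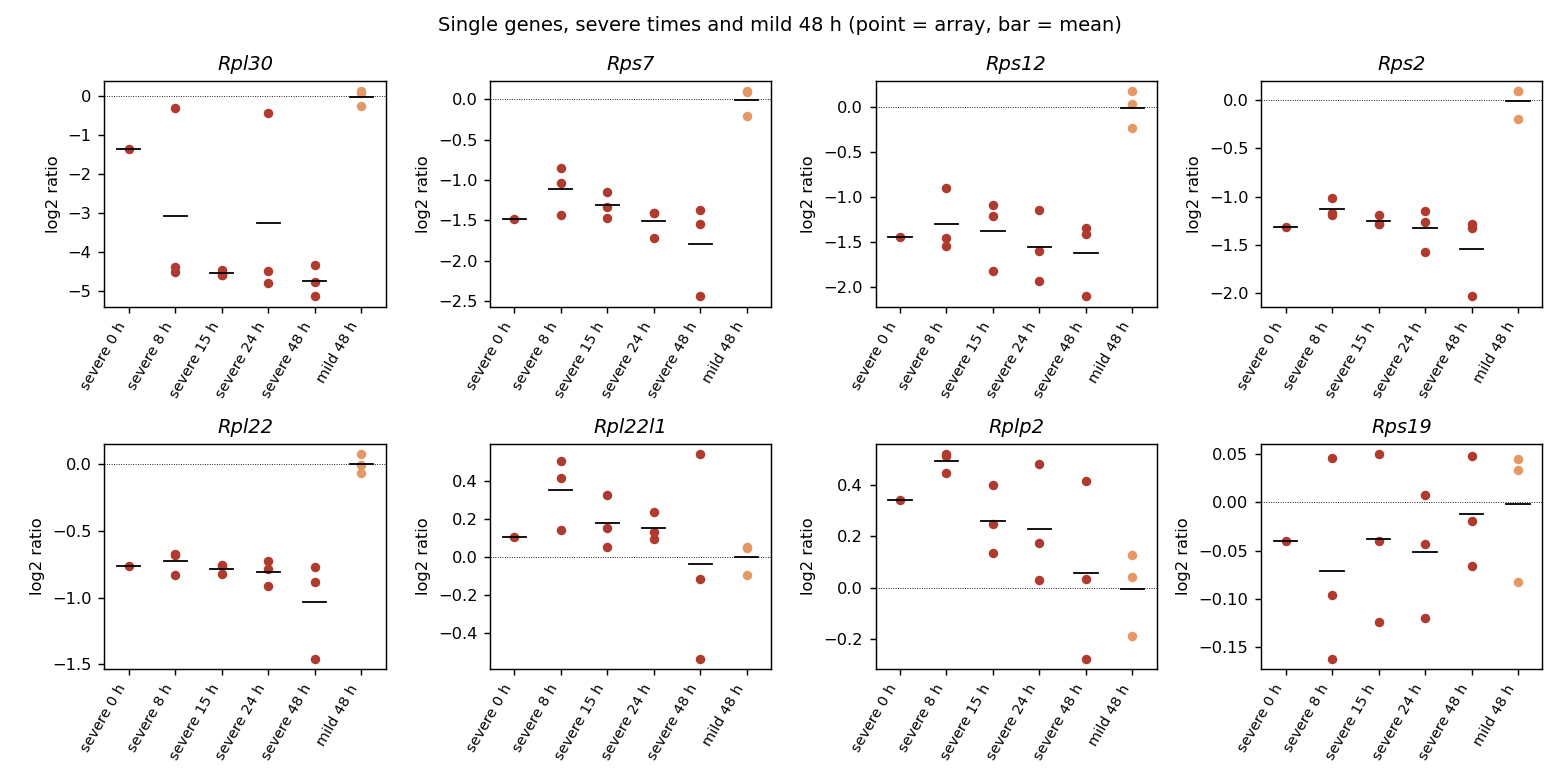
Log2 ratio of 8 ribosomal protein genes on the severe arrays by time (red) and on the mild 48 h arrays (orange), each point an array and each bar the mean, with a scale of its own for each gene. Rps7, Rps12, Rps2 and Rpl22 lie below the mild 48 h arrays at every time, Rpl30 is split between 10 arrays below -4 and 3 above -2, and Rpl22l1, Rplp2 and Rps19 overlap the mild 48 h arrays at 48 h.

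Several ribosomal protein genes have a paralog by name, and 5 pairs of a gene and its paralog were measured. Rpl22 and Rpl22l1 differed most. Rpl22 had log2 ratios of -0.88, -1.46 and -0.77 on the severe 48 h arrays and -0.01, 0.08 and -0.07 on the mild 48 h arrays, and its difference was -1.04 ± 0.14 (limma adjusted p = 0.000356). Rpl22l1, which in mice is held down by Rpl22, had -0.11, -0.54 and 0.54 on the severe 48 h arrays and -0.10, 0.04 and 0.05 on the mild 48 h arrays. It was higher than Rpl22 on all 13 severe arrays, by 0.76 to 1.31 with a mean of 0.99 ± 0.19 (SD, n = 13), against 0.00 ± 0.11 (n = 3) on the mild 48 h arrays. The exact two-sided permutation test over arrays gave p = 0.00357, the smallest possible with 560 splits, and 0.00595 adjusted over the 5 pairs. The test pools 5 times and takes no account of chips. Rpl22 itself lay below the 3 mild 48 h arrays on all 13 severe arrays. A paralog that did not change would therefore also give a small p. Within chips 1, 2 and 4, the single severe array exceeded the single mild 48 h array in this measure by 0.94, 1.13 and 0.90.

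The same comparison held for Rpl7l1 and for Rpl3l, the muscle paralog of Rpl3 in mouse and human. Rpl7l1 minus Rpl7 averaged 0.79 ± 0.25 on the severe arrays (n = 13) and 0.01 ± 0.16 on the mild 48 h arrays (n = 3), with an exact permutation p of 0.00357 (adjusted 0.00595). Rpl3l minus Rpl3 averaged 0.57 ± 0.17 and 0.00 ± 0.09 on these arrays, with the same exact permutation p. Within chips 1, 2 and 4, the severe minus mild 48 h value was 0.99, 1.33 and 0.04 for Rpl7l1 and 0.59, 0.63 and 0.50 for Rpl3l. Rpl3l itself stayed between -0.31 and 0.24 on the severe arrays. Rpl7 and Rpl3 lay below the mild 48 h arrays on all 13 severe arrays, so a paralog without a change would give a small p here too.

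Rpl10l1 fell together with Rpl10: it differed by -0.74 ± 0.10 at 48 h (limma adjusted p = 0.000498). Rpl10l1 minus Rpl10 averaged 0.30 ± 0.26 on the severe arrays (n = 13) and 0.00 ± 0.17 on the mild 48 h arrays (n = 3), with an exact permutation p of 0.0464 (adjusted 0.0464). In the pair of Rpl36al1 and Rpl36a the paralog fell and the parent did not. Rpl36al1 differed by -0.67 ± 0.18 at 48 h (limma adjusted p = 0.0316) and Rpl36a by -0.08 ± 0.09. Rpl36al1 minus Rpl36a averaged -0.47 ± 0.32 on the severe arrays (n = 13) and 0.00 ± 0.14 on the mild 48 h arrays (n = 3), with an exact permutation p of 0.0179 (adjusted 0.0223). Within chips 1, 2 and 4 the severe minus mild 48 h value was 0.49, 0.17 and 0.27 for Rpl10l1 and -0.60, -0.74 and -0.40 for Rpl36al1. Rpl10, Rpl10l1 and Rpl36al1 each lay below the mild 48 h arrays on all 13 severe arrays, so these tests too carry the fall of single genes. Rpl37l1, whose parent Rpl37 was not among the measured genes, fell by 1.63 ± 0.19 (limma adjusted p = 0.000124).

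The 18 genes that did not pass the threshold at 48 h fell into a group with differences from -0.63 to -0.18 and a group close to 0. The first was Rpl29, Rpl15, Rps29, Rpl7l1, Rpl41, Rplp0, Rps24 and Rpl12, with Rpl29 at -0.63 (limma adjusted p = 0.0710) and Rpl12 at -0.18 (0.0840). The second was Rpl36a, Rpl22l1, Rps16, Rps19, Rpl3l, Rpl11, Rpl38, Rpl34, Rplp2 and Rps28, between -0.08 and 0.08. These genes were listed after their values were seen. Several of them varied little on all arrays: the SD over the 18 control and mild 0 to 24 h arrays was 0.05 for Rpl12, 0.06 for Rps19 and 0.08 for Rps28, where the median SD of the 81 genes was larger, at 0.17.

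The array also holds 505 loci that its annotation describes as similar to a cytosolic ribosomal protein gene, most of them pseudogenes or retrocopies. Their sequences can be close to those of the genes, and a probe may bind the mRNA of both, so neither value is certain to come from a single locus. At 48 h, 164 of the 505 (32.5%) fell and 2 rose, with a median difference of -0.04. Of the copies of the 18 genes that did not pass, 33 of 89 fell, and of the copies of the genes that fell, 127 of 408 did. Of the 18 genes, 10 had a copy that fell. Rps19, a protein mutated in Diamond-Blackfan anaemia, is an example. Its own probes gave -0.07, 0.05 and -0.02 on the severe 48 h arrays and 0.03, -0.08 and 0.04 on the mild 48 h arrays. Of its 13 copies, 8 fell. The copy Rps19-ps6 had -1.33, -2.16 and -1.68 on the severe 48 h arrays and -0.33, 0.21 and 0.06 on the mild 48 h arrays, a difference of -1.71 ± 0.21. The copy LOC503110 differed by -1.42 ± 0.12. A probe of Rps19 carries another gene's name in the deposited description, and leaving it out left the count of genes that fell at 63.

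The same was seen for Rpl12, Rpl34 and Rplp2, chosen after their values were seen. The gene Rpl12 differed by -0.18, while its copies Rpl12l2 and LOC499793 differed by -1.47 and -1.40 and its other copy, Rpl12l1, by -0.16. Rpl34 differed by 0.05, and its 3 copies fell by 0.84, 0.63 and 0.52 on the log2 scale. Rplp2 differed by 0.06 at 48 h, while both of its copies fell, by 0.86 and 0.76 on the log2 scale. By contrast, of the 50 copies of Rpl7a, which itself differed by -0.83, 19 fell and 1 rose, and the median of the 50 was -0.04.

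**Figure D4:**
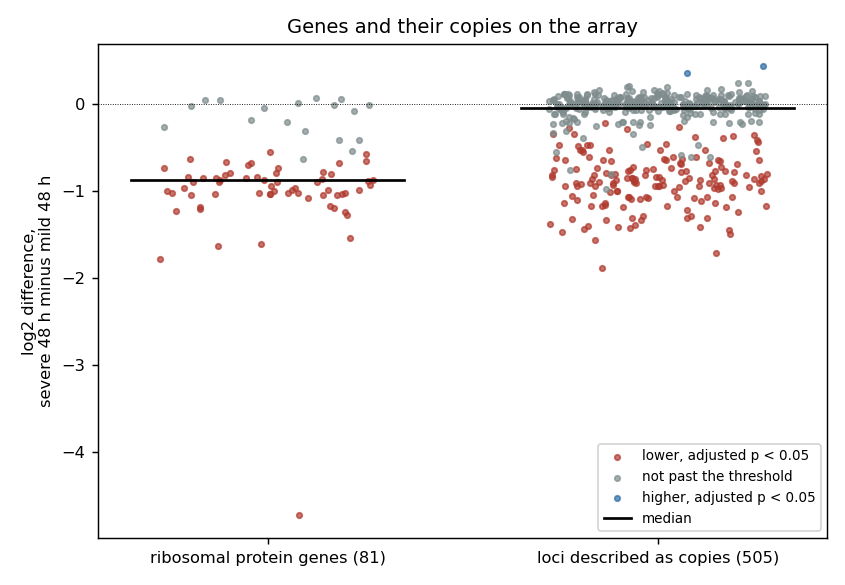
Log2 difference, severe 48 h minus mild 48 h, of the 81 ribosomal protein genes (left) and of the 505 loci described as copies (right), each point a gene or locus spread sideways for visibility and each bar the median. The medians are -0.87 and -0.04, and the copies form a cloud around 0 and another, mostly called lower, near -1.

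Start site sequences were set beside these results because the terminal oligopyrimidine tract is the feature these mRNAs share. For 65 of the 81 genes RefSeq gave a start site on the GRCr8 build, and the windows ran from 30 bases before to 30 bases after it. A run of at least 8 C or T on the gene's own strand was present in 51 of the 65 (78.5%) and in 22.8% of 21842 protein-coding windows of the same length. With either strand counted these shares were 83.1% and 43.0%. The 5 letters CTTTC, which can lie within such a run, were present on either strand in 52.3% of the 65 and 13.7% of all windows. The run was present in 40 of the 49 genes that fell at 48 h and in 11 of the 16 that did not pass the threshold. A run was counted anywhere in the window, also before the start site, so it need not be a tract at the 5′ end of the mRNA. A match describes the letters only. The windows of 7 genes are given 5′ to 3′ with the longest run of C or T in capitals, to show genes that fell (Rps2, Rps7, Rps12, Rpl22) beside genes that did not pass (Rpl22l1, Rplp0, Rplp2).
Rps2, chr10:14251818-14251877, plus strand: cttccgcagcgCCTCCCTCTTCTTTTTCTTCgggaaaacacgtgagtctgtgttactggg
Rps7, chr6:50999416-50999475, minus strand: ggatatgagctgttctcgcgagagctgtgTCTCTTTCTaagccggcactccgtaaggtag
Rps12, chr1:23500045-23500104, plus strand: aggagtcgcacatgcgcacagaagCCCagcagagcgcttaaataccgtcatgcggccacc
Rpl22, chr5:168117931-168117990, plus strand: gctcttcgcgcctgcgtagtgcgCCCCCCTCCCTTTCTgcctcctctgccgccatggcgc
Rpl22l1, chr2:113683166-113683225, plus strand: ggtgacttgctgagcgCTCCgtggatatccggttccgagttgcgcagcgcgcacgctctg
Rplp0, chr12:46718361-46718420, minus strand: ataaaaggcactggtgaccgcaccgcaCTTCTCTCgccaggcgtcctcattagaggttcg
Rplp2, chr1:205975891-205975950, plus strand: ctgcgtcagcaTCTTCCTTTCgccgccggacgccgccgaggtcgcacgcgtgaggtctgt
Rpl22 held a run of 15 bases and Rpl22l1 of 4, while Rplp0 and Rplp2, which did not pass at 48 h, held runs of 8 and 10. Rps12, which fell, held a longest run of 3. Relative to the annotated start, the runs began at -19 for Rps2, -1 for Rps7, -6 for Rps12 and -7 for Rpl22. They began at -14 for Rpl22l1, -3 for Rplp0 and -19 for Rplp2. The runs of Rps12, Rpl22l1 and Rplp2 ended before the annotated start.

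The differences did not change detectably over time after severe injury. The test for a difference between 8, 15, 24 and 48 h called 0 of the 81 genes and 0.0% of all features by limma, and 5 of the 81 and 807 of all features had an unadjusted p under 0.05. The group's medians by array were -0.72, -0.49 and -0.55 at 8 h, -0.66, -0.63 and -0.53 at 15 h, -0.67, -0.70 and -0.63 at 24 h, and -0.69, -1.27 and -0.66 at 48 h. Apart from replicate 2, the 48 h arrays lay within the range of the 24 h arrays. The single array at 0 h already had a median of -0.75. On it 72 of the 81 genes lay below all 3 mild 48 h arrays, where 34.5% of all features did, and 5 lay above. The share of all features above was not taken, so the 5 cannot be set beside it. With 1 array at 0 h this has no replicate.

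The genes of the wider translation apparatus were set beside the ribosomal protein genes, with lists chosen by function. Of 17 other genes whose mRNAs carry the terminal oligopyrimidine tract, 13 fell at 48 h and 0 rose, with a median of -0.75. Of all features 7.77% were called lower at 48 h. Eef1g and Eef1b2, subunits of the elongation factor 1 complex, differed by -1.43 ± 0.22 (limma adjusted p = 0.000925) and -1.33 ± 0.20 (0.000778). Fau, which encodes a ubiquitin-like protein fused to Rps30, had -0.77, -1.27 and -0.70 on the severe 48 h arrays and -0.05, 0.06 and -0.01 on the mild 48 h arrays, and it fell by 0.91 ± 0.11.

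Some genes that build or regulate ribosomes also fell, where 7.77% of all features were called lower at 48 h and 5.14% at 8 h. Of 35 measured genes of ribosome biogenesis and RNA polymerase I, 7 fell at 48 h with a median of -0.39, and 0 fell at 8 h with a median of 0.11. The medians on the severe 48 h arrays were -0.22, -0.90 and -0.09, with replicate 2 lowest. Nop56 and Gar1, proteins of small nucleolar ribonucleoproteins, differed by -1.17 and -1.01 and passed the threshold. Of 31 initiation factor genes 4 fell, with a median of -0.33 and array medians of -0.16, -0.89 and 0.00. Among them Eif4ebp1, an mTOR-regulated inhibitor of cap-dependent translation, had -2.11, -2.74 and -2.48 on the severe 48 h arrays and -0.13, 0.02 and 0.10 on the mild 48 h arrays, and differed by -2.44. Eif2b3, a subunit of the exchange factor of eIF2, differed by -0.96. Of 16 genes of the S6 kinases and the mTOR complexes, 1 fell at 48 h: Rps6ka4, with a difference of -0.43. Rps6kb1, the S6 kinase, differed by -0.68 and did not pass (limma adjusted p = 0.054). Whether these lists differed from the ribosomal protein genes was not tested.

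No other housekeeping gene of the lists for oxidative phosphorylation (54 genes) and the proteasome (33) passed the threshold at 48 h or 8 h by limma, and 1 of oxidative phosphorylation was called lower at each of 15 and 24 h. At 48 h, 4 genes of oxidative phosphorylation and 1 of the proteasome had an unadjusted p under 0.05, and at 8 h 3 and 4 did. Their medians were -0.08 and -0.06 at 48 h and 0.12 and 0.26 at 8 h. The genes farthest from 0 at 48 h were Ndufa5, a subunit of complex I, at -0.46 (adjusted p = 0.179), Sdhc of complex II at 0.47 (0.202), and Psmb6 and Psmb4, subunits of the proteasome core, at -0.49 (0.137) and -0.42 (0.303). The 63 mitochondrial ribosomal protein genes had a median of -0.19 at 48 h, with 1 called lower and array medians of -0.08, -0.69 and 0.14, and a median of 0.09 at 8 h. The group median minus that of these 87 oxidative phosphorylation and proteasome genes lay between -0.98 and -0.57 on the 13 severe arrays and between -0.01 and 0.02 on the mild 48 h arrays. On severe 48 h replicate 2 the oxidative phosphorylation and proteasome genes were also low, with a median of -0.63, where they lay between 0.01 and 0.31 on the other 12 severe arrays. When the arrays were centred on these 87 genes, 63, 63, 63 and 61 ribosomal protein genes fell at 8, 15, 24 and 48 h, and the median of all features moved to -0.16, -0.11, -0.09 and 0.09. Under this centring 9.51%, 12.1%, 10.7% and 11.3% of all features were called in either direction.

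**Figure D5:**
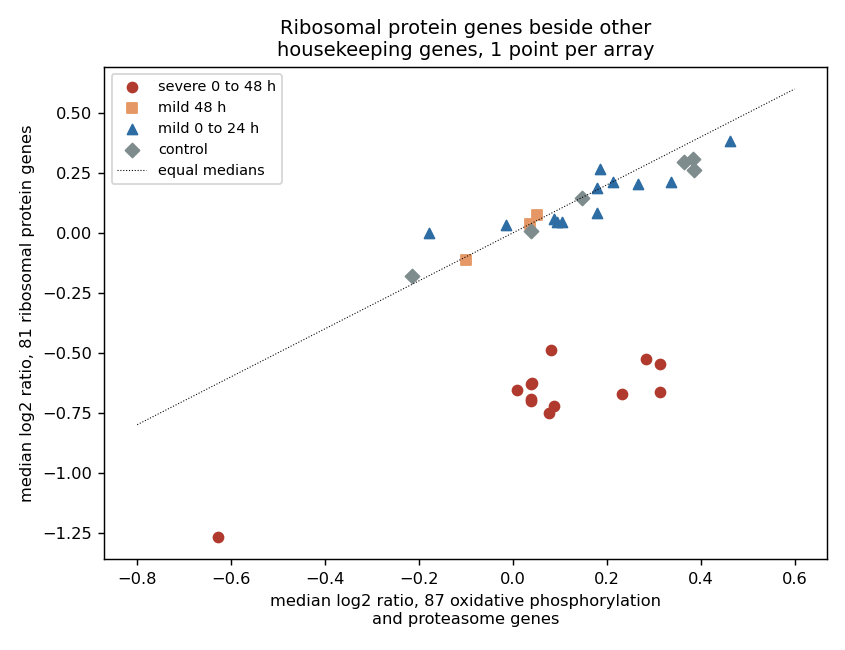
Median log2 ratio of the 81 ribosomal protein genes (vertical) against that of 87 oxidative phosphorylation and proteasome genes (horizontal), each point an array and the dotted line equal medians. The control, mild 0 to 24 h and mild 48 h arrays lie near the line, each within its own set of ratios, and the 13 severe arrays lie 0.57 to 0.98 below it.

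Markers of cell types also differed between these arrays, where 7.77% of all features were called lower at 48 h and 3.45% higher. Of 7 measured fibroblast and meningeal markers, 6 fell at 48 h, and the median over the markers lay between -3.88 and -3.10 on the severe 48 h arrays and between -0.04 and 0.08 on the mild 48 h arrays. The largest falls were those of Lum at -4.77 and Col1a1 at -4.30. Of 7 astrocyte markers 5 rose, with array medians of 0.60 to 1.25 against -0.05 to 0.01, led by S100b at 3.10 and Aldoc at 1.28. Of 9 oligodendrocyte lineage markers 4 rose, with array medians of 0.86 to 1.5 against -0.03 to 0.03, among them Cnp at 1.78. Of 12 neuron markers 1 fell, Tubb3 at -2.29, and Eno2 differed by -1.60 (limma adjusted p = 0.0953). The neuron medians were uneven, from -2.04 to 0.13 on the severe 48 h arrays against -0.04 to 0.01 on the mild 48 h arrays. Of 7 microglia markers 0 passed by limma (0 at an unadjusted p under 0.05), and of 4 endothelial markers 1 fell, Cldn5 at -0.36. Ratios cannot show which markers were absent. The part of cell composition in the fall of the ribosomal protein genes was not tested. The median of the 81 genes was -0.66 on severe 48 h replicate 3, where the neuron markers had a median of 0.13, -0.69 on severe 48 h replicate 1, where they had -1.58, and -1.27 on severe 48 h replicate 2, where they had -2.04. Both values on replicate 2 were the lowest of the 13 severe arrays. At 8 h the medians of the 81 genes were -0.72, -0.49 and -0.55, where the neuron medians were 0.34, -0.72 and 0.20. At 15 h they were -0.66, -0.63 and -0.53 beside -1.67, -1.73 and 0.13. At 24 h they were -0.67, -0.70 and -0.63 beside -0.05, 0.23 and -1.57. The single array at 0 h had -0.75 beside -1.40. A relation between these medians was not tested.

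Within the other set of arrays the median of the 81 genes lay between -0.18 and 0.38 on single arrays. Control 4 to 6 were compared with control 1 to 3 because the labels name both as controls. Here 21 of the 81 genes were higher and 0 lower, with a median of 0.30, where 11.5% of all features were higher and 0.311% lower (11.8% in all) with a median of 0.04. However, 12 were lower and 0 higher when the arrays were centred on the oxidative phosphorylation and proteasome genes, a scaling that moved the median of all features to -0.35 and under which 64.9% of all features were called. Among the genes called, Rpl26, Rpl14 and Rpl27 had the largest differences. Rpl27 had log2 ratios of 0.40, 0.31 and 0.51 on control 4 to 6 and 0.00, -0.20 and 0.18 on control 1 to 3, a difference of 0.41 ± 0.10 (limma adjusted p = 0.0155). Rpl14 had 0.43, 0.42 and 0.40 on control 4 to 6, against 0.01, -0.13 and 0.11 on control 1 to 3. Rpl26 had 0.36, 0.53 and 0.34 on control 4 to 6, against -0.02, -0.20 and 0.20 on control 1 to 3. These did not overlap in the 3 genes. Relative to the 87 housekeeping genes the group median was lower by 0.07 to 0.12 on each of control 4 to 6. With chip as a term, and with all 34 arrays in the fit, 0 genes passed. The count was 0 without control 2 or control 6, 1 without control 5, 9 without control 4, 10 without control 1 and 44 without control 3. In the same order these fits called 0.558%, 2.86%, 3.0%, 6.52%, 7.99% and 15.6% of all features. Control 1 was on chip 1, control 2 to 4 on chip 2, and control 5 and 6 on chip 3.

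After mild injury, 3 genes were higher at 0 h than on control 1 to 3, Rpl5, Rpsa and Rpl27, where 4.62% of all features were higher and 0.165% lower (4.78% in all). The group median was 0.24. Rpl5 had log2 ratios of 0.55, 0.55 and 0.25 on the mild 0 h arrays and 0.07, -0.02 and -0.06 on control 1 to 3, which did not overlap, and its difference was 0.45 ± 0.09 (limma adjusted p = 0.0165). Rpsa differed by 0.36 ± 0.10 (adjusted p = 0.0482) and Rpl27 by 0.36 ± 0.10 (0.0469). With all 6 controls as the reference 0 genes passed and the median was 0.08, and when centred on the oxidative phosphorylation and proteasome genes 10 genes were lower and 0 higher, with the median of all features at -0.30 and 52.4% of them called. The count was 0 without control 2, mild 0 h replicate 1 or mild 0 h replicate 2, 1 without control 1, 20 without control 3 and 18 without mild 0 h replicate 3. In the same order these fits called 0.22%, 0.567%, 0.0503%, 2.48%, 7.6% and 10.8% of all features. The 10 of 33 proteasome and 11 of 54 oxidative phosphorylation genes called higher stood beside them, with medians of 0.37 and 0.32.

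At 8, 15 and 24 h after mild injury 0 of the 81 genes passed against control 1 to 3 by limma, where 0.119%, 0.0% and 0.0% of all features did (at 8 h, 0.0869% higher and 0.032% lower). The medians were 0.11, 0.11 and 0.17, and 4, 3 and 15 of the 81 had an unadjusted p under 0.05. Of all 21862 features, 2389, 1154 and 1916 had an unadjusted p under 0.05 at these times. With all 6 controls as the reference the medians were -0.04, -0.03 and 0.02. The test for a difference between 0, 8, 15 and 24 h called Rpl5 (limma adjusted p = 0.0158), beside 2.06% of all features. Rpl5 had 0.55, 0.55 and 0.25 at 0 h, 0.18, 0.20 and 0.18 at 8 h, -0.26, -0.03 and -0.03 at 15 h and 0.30, 0.12 and 0.07 at 24 h. Its arrays at 15 h lay below those of the other times. No ribosomal protein gene passed this test in quantile normalized data or with the replicate number as a block. Without mild 0 h replicate 1 or 2 none passed (0.663% and 0.759% of all features), and without mild 15 h replicate 2, 3 did (2.8%).

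Rpl37l1 and Rps7 had the widest ranges of the 81 genes in this set of arrays. They were singled out after their values were seen. Rps7 ranged from -0.33 to 0.98 and Rpl37l1 from -0.44 to 0.94, where the median range of the 81 genes was 0.66. Rps7 was highest on mild 24 h replicate 2 at 0.98, mild 0 h replicate 2 at 0.66 and mild 15 h replicate 2 at 0.65, which lie on chip 1. On the other chip 1 arrays of this set it was -0.08 (control 1) and 0.10 (mild 8 h replicate 2). Rpl37l1 was highest on mild 24 h replicate 2 at 0.94 and mild 15 h replicate 2 at 0.74. On the other mild 15 h arrays Rps7 was -0.12 and -0.33 and Rpl37l1 -0.09 and -0.44.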

How the data were processed

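Biotin-labelled RNA was hybridised to Illumina RatRef-12 bead arrays, per the labels. The authors deposited a linear ratio for each probe: an array's signal divided per probe by the mean of 3 arrays, as found from the values (of 5984 possible triples, 2 had ratios averaging 1 at each of 22226 probes, within 1e-04). Background correction and software are not given in the sources used here. The deposited signal table has 34 columns whose names match no sample's labels; they entered no comparison, and its text columns only named probes.

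Ratios were put on the log2 scale. Probes were named from the platform annotation (13192), the RefSeq accession (363) or the deposited description (8569), 102 had no name, and probes of a gene were averaged. Of the 83 probes of the group, these gave 67, 5 and 11. Linear models were fitted in R 4.3.3 by lmFit and eBayes of limma 3.58.1, separately for the sets of 18 and 16 arrays, with Benjamini-Hochberg adjustment over 21862 features. Paralog pairs were compared with exact permutation tests over arrays. Values are log2 differences with the SE unless an SD is named. The number of arrays limits the precision. Since the labels tie no replicate to a culture, a p-value reflects array to array spread alone, which may be technical.

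The fit was tested on simulated data. The per-sample values were ratios where the design had assumed signals, and the signal columns match no labels, so background correction and a filter on dim probes were not run. Named genes were those fixed by role, paralogs and their parents, and the 3 largest rises and falls of each comparison among called genes, with the 2 largest differences at severe 48 h for each other list, and Fau. Some genes are not reported here by name. The members and lists were chosen with earlier results of these data known. Figures used Python 3.11.15 with pandas 2.3.3 and matplotlib 3.10.9.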

Additional observations from a re-analysis of the deposited data

Results flagged for a closer look

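Rpl10 on control 2 lay far from the other controls. Its log2 ratio there was -0.2443, where the other 5 control arrays lay between 0.05 and 0.18, and its gap to the nearest was 0.69 of the whole range of the 6. Of 32 values tested over the 6 controls, this was 1 past the limit, and chance alone gives about 1 in 20. The 6 controls were divided by the mean of control 1 to 3, and the median of the 81 genes on control 2 was also the lowest of the controls, at -0.18.

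Rpl5 differed between the times after mild injury, with a limma adjusted p of 0.0158 for 0, 8, 15 and 24 h. Its differences from control 1 to 3 were 0.45, 0.19, -0.10 and 0.16. The group names of these arrays rest on labels that the order of the signal table puts in doubt.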

How the results depend on the processing

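In the severe comparisons no alternative turned the direction. In the main fit 44, 49, 53 and 63 genes were lower at 8, 15, 24 and 48 h. Quantile normalization gave 34, 35, 33 and 38 (6.54%, 6.48%, 6.46% and 5.6% of all features called). Chip as a block gave 10, 13, 28 and 41 (3.72%, 4.41%, 4.16% and 4.14%). The replicate block gave 45, 47, 52 and 64 (8.48%, 10.7%, 9.1% and 11.2%). All 34 arrays in a single fit gave 58 (with 1 higher), 62, 60 and 67 (14.0%, 17.4%, 15.2% and 17.8%). Leaving out each array in turn gave 20 to 38, 29 to 44, 40 to 51 and 58 to 69. The shares of all features called were then 5.35% to 6.94%, 7.18% to 9.43%, 5.98% to 9.11% and 7.85% to 14.9%. The severe time course stayed at 0 in each of these. For named genes the severe comparisons held 77 calls of a gene at a time, each checked in several alternatives. Of these checks 801 kept the call, 123 lost it and none turned. The 801 include 77 checks in which only the Rps19 values were replaced. With chip as a block, 37 of the 77 calls held and 40 were lost. With quantile normalization the median at 48 h was -0.57.

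For control 4 to 6, 21 genes higher became 12 lower when centred on oxidative phosphorylation and proteasome genes (64.9% of all features called). Under that centring, Rpl5 moved to -0.0056, Rps14 to -0.0898, Rps27a to -0.0514 and Rpsa to -0.039. The count was 0 with quantile normalization, the chip block or all 34 arrays. Leaving out an array gave 0 to 44 (0.558% to 15.6% of all features). For mild 0 h, 3 genes higher became 10 lower when so centred (52.4% of all features). The count was 1 with the chip block (0.746%), and 0 with quantile normalization, the replicate block, all 34 arrays or all 6 controls. It was 0 to 20 by leaving out an array (0.0503% to 10.8%). The mild time course moved from 1 to 0 under quantile normalization, centring, the replicate block and all 34 arrays. Leaving out an array gave 0 to 3 (0.663% to 3.7% of all features). Mild 8, 15 and 24 h stayed at 0 in every setting run.

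Same-numbered arrays did not deviate together as a rule. Their correlations ran from -0.45 to 0.26 (median -0.06) in the control and mild set. In the severe set they ran from -0.69 to 0.75 (median -0.14). The replicate number was therefore not taken as a pairing in the main fit. In each mild group, replicates 1, 2 and 3 lay on chips 4, 1 and 2, so replicate and chip cannot be told apart there. Control 4 to 6 share no number with control 1 to 3. Signal levels were not used, so probes near background were not told from stable genes. Testing probes singly, and Rps19 from a single probe (chosen after seeing the data), changed no count by more than 1.5 times. Normexp correction and the filter on dim probes were not run, since the signal columns match no labels.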
